A study of Mus musculus with 4 samples.

Results

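Hippocampal RNA was compared between mice with and without Ogg1 by joining 4 libraries into pairs. The Ogg1-null pair was Ogg1 KO (genotype Ogg1-/-) and DKO, the knockout of both Ogg1 and Mutyh. The Ogg1-intact pair was wild type (WT) and Mutyh KO (genotype Mutyh-/-). Pairs were formed from the genotype labels alone, and all 4 libraries of the series entered the comparison, 2 in each pair. The mice were C57BL/6, aged 6 months, with no treatment named, and each genotype was represented by 1 library. The sources used here do not give the number of animals behind a library, their sex or the deleted part of either gene. The libraries of a pair therefore differ in Mutyh genotype and are not repeats of 1 genotype, and the spread within a pair holds that difference together with animal, dissection and library. Each model p-value below sets the difference between pairs against such a spread, estimated partly from the gene itself and partly from all tested genes. The fit with an additive Mutyh term differs, since it takes Mutyh genotype out of the spread. Fits that leave out 1 library have a spread within 1 pair only. In the main edgeR fit a gene had 2 residual degrees of freedom of its own, beside a median of 5.88 shared over genes.

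OGG1 is a DNA glycosylase. It starts base excision repair by cutting out 8-oxoguanine, a common product of guanine oxidation, where it faces cytosine. If the lesion is copied first, adenine is often placed opposite it, and MUTYH cuts out that adenine. Neurons do not divide and use much oxygen, and repair of oxidised bases in the hippocampus has been studied for its part in memory, mood and ageing. Pooling the genotypes by Ogg1 status asks which transcripts differ without OGG1 whether or not MUTYH is present.

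The libraries held 17.02 M to 18.20 M reads in genes (M, mega). Markers of the labelled tissue were present at similar summed levels: pyramidal cell genes of CA1 to CA3 had 2353 and 2086 reads per M in WT and Mutyh KO and 2080 and 2219 in Ogg1 KO and DKO, and dentate granule cell genes had 1227 and 1253 against 1107 and 1213. Individual libraries stood apart in ways that cut across the pairs. The Mutyh KO library held 10307 reads of Xist, the RNA of the inactive X chromosome, against 14 in WT, 23 in Ogg1 KO and 29 in DKO. It also held reads of Y-linked genes at lower levels than the other libraries, with Eif2s3y at 184 against 456, 550 and 516 in WT, Ogg1 KO and DKO, and Kdm5d at 159 against 417, 419 and 476. These 2 of the 5 sex-linked genes were higher without overlap in the Ogg1-null pair, as were 13.3% of all tested genes. Both were higher by at least 1.5-fold, as were 16 of the 13186 tested genes without overlap. The list's median difference of 0.59 became 0.053 without the Mutyh KO library. The WT library was low in choroid plexus genes, with 624.8 reads per M against 5446 in Mutyh KO, 5262 in Ogg1 KO and 2770 in DKO. Alb, the liver's albumin gene, had 752, 723 and 761 reads in WT, Mutyh KO and DKO and 0 in Ogg1 KO. In bulk tissue such as this, fewer cells of a type and less RNA per cell cannot be told apart.

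The targeted gene was measured first. Ogg1 (gene ID 18294) had 94 and 81 reads in WT and Mutyh KO, against 130 and 103 in Ogg1 KO and DKO. These are 3.33 and 3.04 RPKM (reads per kilobase of gene and per M reads) against 4.91 and 3.64. Both Ogg1-null libraries lay above both Ogg1-intact libraries, so the read total was not lower under the Ogg1-null labels. The deleted part of the gene is not given, so the total alone cannot check those labels. The directions given below rest on them. The mean difference was 0.32 on the log2(RPKM + 1) scale, which was smaller than the 0.35 between the libraries labelled Ogg1 KO and DKO (edgeR's quasi-likelihood test, unadjusted p = 0.0794).

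The covered share of Ogg1, the percent of its length with reads, ran the other way. The intact libraries stood at 86.7% (WT) and 81.5% (Mutyh KO) and the null libraries at 47.2% (Ogg1 KO) and 46.4% (DKO), with no overlap and with less than 1 percentage point between the null libraries. Of 13670 genes with at least 20 reads in every library, Ogg1 had the lowest pair difference in covered share, -37.3 points. The same rank held among the 12450 genes with at least 50 reads in every library. The median gene differed by 0.03 points, and 14 genes lay more than 20 points lower in the Ogg1-null pair and 9 more than 20 points higher.

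Camk1 was the single gene that passed the test between pairs. It encodes calcium/calmodulin-dependent protein kinase I, which links calcium entry to phosphorylation of its targets and is itself switched on by CaM kinase kinases. Camk1 (gene ID 52163) had 510 and 503 reads in WT and Mutyh KO, and 160 and 155 in Ogg1 KO and DKO, or 19.6 and 20.5 RPKM against 6.55 and 5.94. The libraries of a pair nearly coincided and the pairs lay far apart. The gap between the nearest libraries of the pairs was 1.45 on the log2(RPKM + 1) scale, and the larger difference within a pair was 0.12.

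In edgeR's quasi-likelihood test Camk1 fell by 1.68 on the log2 scale (SE 0.13, Benjamini-Hochberg adjusted p = 0.0152). It was the only gene of 13186, or 0.00758%, with an adjusted p under 0.05. The ratio of reads per library total was 0.334 (exact 95% interval 0.278 to 0.400) for Ogg1 KO over WT and 0.290 (0.241 to 0.348) for DKO over Mutyh KO. Within the pairs it was 1.04 (0.920 to 1.18) for Mutyh KO over WT and 0.906 (0.722 to 1.14) for DKO over Ogg1 KO. These intervals cover counting error only. In edgeR's quasi-likelihood test without the Ogg1 KO library the log2 difference was -1.745 (adjusted p = 0.26), and without the DKO library it was -1.615 (adjusted p = 0.206, same test), so the call is lost without either. Each of those fits leaves a lone Ogg1-null library, assumed to vary like the others.

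**Figure D1:**
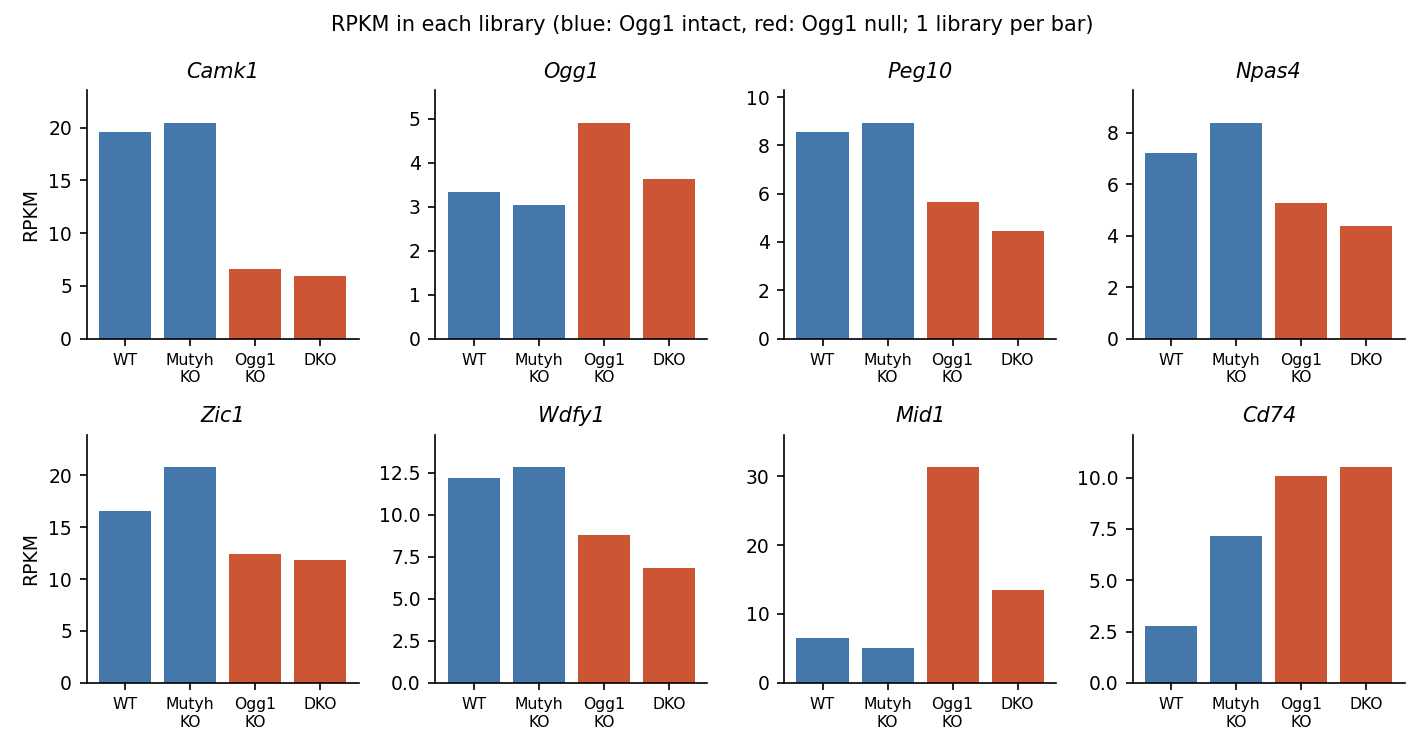
RPKM of 8 genes in each of the 4 libraries, 1 bar per library, with the Ogg1-intact pair in blue and the Ogg1-null pair in red. The bars of Camk1 fall into 2 levels, near 20 and near 6 RPKM, while those of Mid1 and Cd74 differ within a pair as well as between pairs.

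Camk1 is also the neighbour of Ogg1. In the RefSeq gene table of GRCm38.p6 the genes lie on opposite strands of chromosome 6 and their ends overlap. Whether the libraries kept strand was not stated, so reads of the overlapping stretch cannot be told apart between them. The covered share of Camk1 was 95.9% and 98.5% in the intact pair (WT, Mutyh KO) and 69.8% and 71.9% in the null pair (Ogg1 KO, DKO), and its pair difference of -26.3 points was the 3rd lowest of the 13670 genes. Myh6, a heart myosin gene at -28.9 points, ranked between Ogg1 and Camk1, but its low value came from the Ogg1 KO library alone (16.2%, against 69.8%, 74.2% and 70.1% in WT, Mutyh KO and DKO). The 250 bases before the start of Ogg1 and of Camk1 are shown because these starts lie at the far ends of the pair of genes. They are from RefSeq (GRCm38.p6), at chr6:113326726-113326975 on the plus strand and chr6:113343923-113344172 on the minus strand. Capitals mark GGGCGG, the GC box bound by Sp1, on either strand in Ogg1 and TGACG, the core of the cAMP response element, on either strand in Camk1:
Ogg1: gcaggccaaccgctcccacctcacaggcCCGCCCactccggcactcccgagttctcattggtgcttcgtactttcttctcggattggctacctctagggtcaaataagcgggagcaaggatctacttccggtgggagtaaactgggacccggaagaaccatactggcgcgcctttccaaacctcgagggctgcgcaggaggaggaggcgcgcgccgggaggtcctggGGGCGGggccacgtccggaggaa
Camk1: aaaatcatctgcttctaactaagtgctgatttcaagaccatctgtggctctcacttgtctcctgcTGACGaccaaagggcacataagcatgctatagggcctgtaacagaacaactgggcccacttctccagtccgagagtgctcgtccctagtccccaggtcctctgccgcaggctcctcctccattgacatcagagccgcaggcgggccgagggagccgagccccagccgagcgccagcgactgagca
The Ogg1 window held 2 matches to GGGCGG and none to TGACG, and the Camk1 window held 1 match to TGACG and none to GGGCGG. Over the same window of 32851 promoters, 32.7% held GGGCGG and 17.8% held TGACG, so these matches describe the sequences and single out neither gene.

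The remaining neighbours of Ogg1 did not share the fall of Camk1. The 25 tested genes on each side, 50 in all, held 3 genes whose pairs did not overlap with the Ogg1-null pair higher and 9 with it lower, where over all tested genes the shares were 13.3% and 14.4%. Camk1 was 1 of them, and it was also the only 1 of the 50 whose gap between pairs exceeded the larger difference within a pair. Brpf1, which lies next to Ogg1 on the other side and encodes a chromatin reader, differed by -0.04, and Tada3, the gene beyond Camk1 and a subunit of histone acetyltransferase complexes, by -0.01. Rpusd3 was the next most different among the nearest 10 genes on each side, at -0.32 (unadjusted p = 0.0575 by edgeR's quasi-likelihood test), followed by Creld1 at -0.23. Along the rest of chromosome 6, 39 of 596 genes (6.54%) had a gap above the larger difference within a pair, against 757 of 12539 (6.04%) on other chromosomes.

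Chromosome 6 held 6 of the 42 genes that differed at least 1.5-fold without overlap, 0.927% of its 647 tested genes against 0.287% of those on other chromosomes. Besides Camk1 they included Peg10, Efcab12 and Nrip2, all lower in the Ogg1-null pair, and Tmem72, which was higher. In gene order Peg10 was the 420th tested gene before Ogg1, Efcab12 the 33rd after it and Nrip2 the 138th after it. Fam21, whose product belongs to the WASH complex of endosomes, was the 38th gene after Ogg1 and had 2385 and 2328 reads in WT and Mutyh KO and 2873 and 3124 in Ogg1 KO and DKO. Its difference of 0.34 was below 1.5-fold but its gap of 0.31 was large beside a difference within pairs of 0.04.

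**Figure D2:**
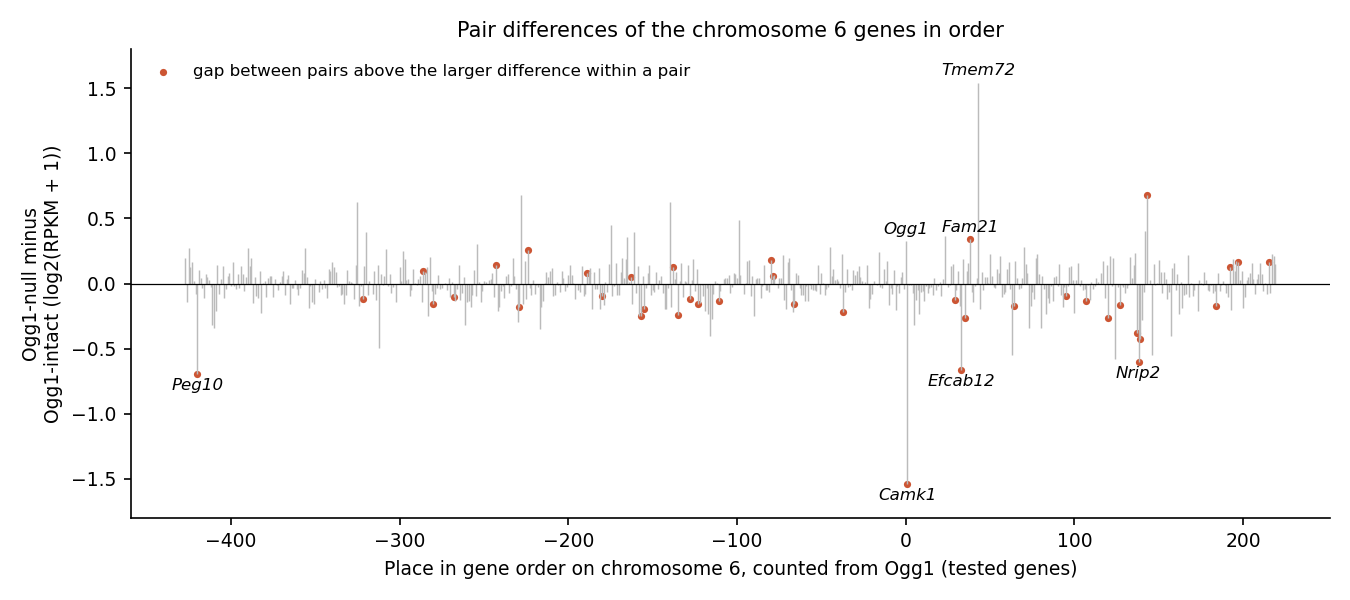
Pair difference (Ogg1-null minus Ogg1-intact, log2(RPKM + 1)) of the tested genes of chromosome 6 in their order along the GRCm38.p6 table, counted from Ogg1, with orange points where the gap between pairs exceeded the larger difference within a pair. Camk1 stands alone at -1.54 beside Ogg1, with Peg10, Efcab12 and Nrip2 at -0.60 to -0.69 farther away.

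Across all genes the pairs differed little. Of the 13186 genes with a mean of at least 1 RPKM, 99.4% differed by less than 1.5-fold between the pair means, and the median absolute difference was 0.069 on the log2(RPKM + 1) scale. Within the pairs the median absolute difference was 0.11 both between Ogg1 KO and DKO and between WT and Mutyh KO. These are differences of single libraries, which vary more than means of 2, so 0.069 and 0.11 are not like measures. Of the 6 possible comparisons of 2 libraries, the closest was Mutyh KO with DKO (median 0.082), which come from opposite pairs. Libraries of opposite pairs ranged from 0.082 to 0.12, and the values of 0.11 within the pairs lay inside that range.

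The pairs did not overlap for 1754 genes that were higher in the Ogg1-null pair (13.3% of those tested) and 1901 that were lower (14.4%). Together they made up 27.7% of the genes tested. Any 4 unequal values lie without overlap in 2 of the 6 signed splits into pairs, a share of 0.333. Lack of overlap by itself therefore does not set a gene apart. Most of these separations were narrow, with a median gap of 0.042. The gap exceeded the larger difference within a pair for 377 genes that were higher (2.86%) and 420 that were lower (3.19%). A difference of at least 2-fold without overlap was found for 5 genes that were higher (0.0379%) and 6 that were lower (0.0455%). With 2 libraries a side, an exact permutation test of any single gene cannot go below p = 0.333 (two-sided), so the model across all genes carried the test. Its second smallest adjusted p was 1.0 when rounded, and 228 genes (1.73%) had an unadjusted p under 0.05, 98 higher and 130 lower.

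**Figure D3:**
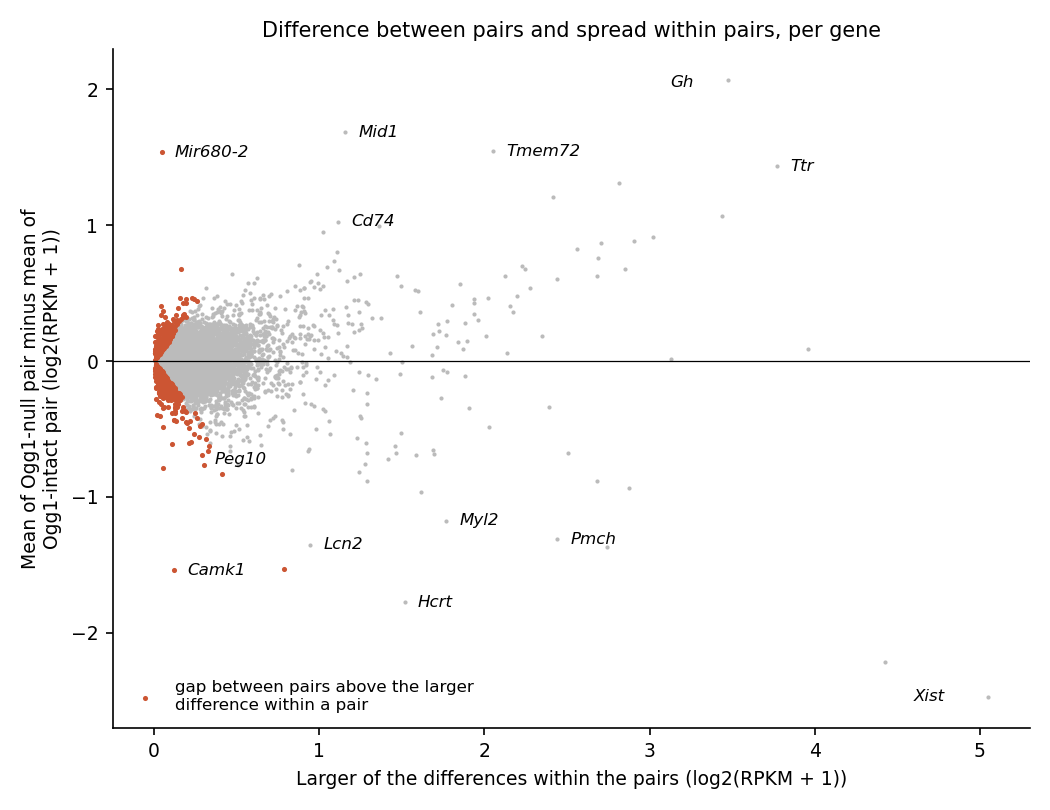
Each point is 1 of the 13186 genes, placed by the larger of its differences within the pairs (x axis) and by its difference between pair means (y axis), both in log2(RPKM + 1), with orange where the gap between pairs exceeded the larger difference within a pair. Camk1 and the sparsely read Mir680-2 combine a large pair difference with a small spread, whereas Gh, Ttr and Xist lie far to the right.

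After Camk1, named lower genes with wide gaps and deep reads included Peg10, Wdfy1, Agxt2l1 and Nrip2, none past the test after adjustment. Peg10, an imprinted gene derived from a retrotransposon, had 1037 and 1023 reads in WT and Mutyh KO and 644 and 542 in Ogg1 KO and DKO. Its difference was -0.69 with a gap of 0.52, above the 0.29 between the Ogg1-null libraries (edgeR's quasi-likelihood test, unadjusted p = 0.000197). DESeq2's Wald test called 4 genes on the same counts, all lower: Camk1, Peg10 (adjusted p = 0.00131), Wdfy1 (0.0351) and Gm7120 (0.0288), the last named here only because the count is small.

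Wdfy1, an adaptor of endosomal membranes on the list of genes that vary between mouse strains, had 1008 and 1006 reads against 686 and 566 (difference -0.63). Agxt2l1, an enzyme that breaks down phosphoethanolamine, had 334 and 295 against 192 and 187 (-0.61). For both genes the lowest Ogg1-intact library lay well above the highest Ogg1-null library. Nrip2, which binds nuclear receptors, had 415 and 412 reads against 273 and 248 (-0.60). Efcab12, a calcium-binding protein gene, had 172 and 193 against 112 and 86 (-0.66).

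The neuronal activity gene Npas4 was another member of this lower group. Npas4 encodes a transcription factor that is induced by calcium entry and adjusts inhibitory synapses. It had 431 and 473 reads in WT and Mutyh KO, against 295 and 262 in Ogg1 KO and DKO, or 7.23 and 8.38 RPKM against 5.26 and 4.37. The difference was -0.60, with a gap of 0.39 and at most 0.22 within a pair (edgeR's quasi-likelihood test, unadjusted p = 0.00118). Its 250 bases before the start (RefSeq, GRCm38.p6, chr19:4989972-4990221, minus strand) are shown because calcium signals reach this class of genes partly through the cAMP response element, with TGACG on either strand in capitals:
Npas4: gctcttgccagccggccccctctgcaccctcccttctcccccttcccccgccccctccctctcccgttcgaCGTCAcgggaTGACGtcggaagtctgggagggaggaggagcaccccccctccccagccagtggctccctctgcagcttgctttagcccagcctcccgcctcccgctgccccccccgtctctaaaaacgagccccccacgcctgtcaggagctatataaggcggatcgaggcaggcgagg
The Npas4 window held 2 matches to TGACG, a motif that 17.8% of promoters held. The full palindrome TGACGTCA, which 1.55% of promoters held, did not occur in that window. These matches describe the sequence only.

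The immediate early list had 29 tested genes, of which 9 lay lower without overlap and 2 higher, beside 14.4% and 13.3% of all genes. The gap exceeded the spread within pairs for 3 that were lower and none that were higher, beside 3.19% and 2.86% of all genes. The median difference was -0.16 beside 0.0010 for all genes. Ier2, an early response regulator, had 100 and 117 reads in WT and Mutyh KO against 67 and 65 (difference -0.54). Egr3, a zinc finger factor, had 1140 and 1095 against 964 and 1014 (-0.17). Egr2, from the same family, had 67 and 93 against 50 and 29 (-0.53), and Btg2, a growth regulator that is also a p53 target, had 331 and 419 against 271 and 246 (-0.45).

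Other immediate early genes were low mainly in the DKO library. Arc, a synaptic protein with a retroviral fold, had 3200 and 3067 reads in WT and Mutyh KO, 2907 in Ogg1 KO and 1864 in DKO. Fos, a subunit of the AP-1 factor, had 251 and 343 in the intact pair, 243 in Ogg1 KO and 118 in DKO. The pairs overlapped for Fos, since Ogg1 KO (6.77 RPKM) lay above WT (6.58 RPKM). The list's summed level was 1585 and 1617 reads per M in the intact pair, 1574 in Ogg1 KO and 1325 in DKO. Its median difference was -0.057 without the DKO library and -0.30 without the Ogg1 KO library.

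The 19 tested calcium/calmodulin-dependent kinase genes did not lie low as a group with Camk1. Without overlap, 5 were higher and 3 lower, Camk1 included, beside 13.3% and 14.4% of all genes. The list's median difference was 0.03. Camk4, the nuclear kinase that phosphorylates CREB, had 2580 and 2893 reads in WT and Mutyh KO against 3120 and 3820 (difference 0.32, unadjusted p = 0.0161 by edgeR's quasi-likelihood test). The gap of Camk4 did not exceed the larger difference within a pair. Camk2g had 2833 and 2778 against 3050 and 3125, and Dclk1, a doublecortin-like kinase, 12198 and 10963 against 12568 and 12994, each 0.14 apart. The close relatives Camk1d and Camk1g differed by 0.06 and 0.12, and Camkk2, an activating kinase, by -0.00.

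Among repair genes no member stood far from the rest. Of 23 tested genes for glycosylases and base excision repair, 6 were higher and 5 lower without overlap, Ogg1 included, beside 13.3% and 14.4% of all genes, and the median difference was -0.00. Nudt1, which clears oxidised guanine nucleotides before they enter DNA, had 24 and 24 reads in WT and Mutyh KO against 28 and 33 (0.21). Xrcc1, the scaffold of single-strand break repair, had 577 and 536 against 451 and 521 (-0.18), and Smug1, a uracil glycosylase, 271 and 244 against 228 and 234 (-0.12). Lig1, a DNA ligase, had 132 and 155 against 170 and 171 (0.19). Of 32 genes for mismatch, excision and break repair, 4 were higher and 1 lower (the same shares of all genes apply), with Lig4, the ligase of end joining, at 0.25.

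Mutyh itself stayed below the 1 RPKM mean and was not tested. It had 39 and 15 reads in WT and Mutyh KO and 35 and 20 in Ogg1 KO and DKO, so its reads followed Mutyh genotype and not Ogg1 status.

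No gene of the stress lists passed the test, and over all genes 14.4% were lower and 13.3% higher without overlap. Of 18 p53 response genes, 6 were lower and 1 higher without overlap, with a median of -0.11 that became 0.031 without the DKO library. Sesn2, a stress-induced regulator of TORC1, had 309 and 253 reads against 235 and 230. Of 32 Nrf2 and antioxidant genes, 8 were lower and 1 higher, with a median of -0.02 that became 0.0077 without the WT library. The metallothionein genes Mt1 and Mt2, which bind metals, had 3445 and 3572 against 2906 and 2998, and 1239 and 1382 against 957 and 1120. Gpx1, a glutathione peroxidase, had 515 and 535 against 395 and 469, a difference of -0.27. Hmox1, a classical Nrf2 target, lay the other way at 0.15.

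Endoplasmic reticulum chaperone genes were lower without overlap in 9 of 20 cases and higher in 1, beside 14.4% and 13.3% of all genes. The median difference was -0.14, and it was -0.059 without the WT library. Hspa5, the main chaperone of that compartment, had 5631 reads in WT, 3812 in Mutyh KO, 3523 in Ogg1 KO and 3869 in DKO. Sdf2l1, a chaperone partner, had 181, 116, 97 and 102. For both genes Mutyh KO lay close to the null libraries and far from WT. Cytosolic heat shock genes had 4 of 18 lower and none higher (median -0.10, and 0.017 without the WT library), and their summed level was 6866 reads per M in WT against 5920 to 6006 in the others.

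Transmission genes lay in both directions, beside 13.3% of all genes higher and 14.4% lower without overlap. Slc32a1, which loads GABA into vesicles, had 2002 and 1621 reads in WT and Mutyh KO against 1318 and 1487. Its difference of -0.35 came with a gap of 0.20, below the 0.22 within the intact pair (unadjusted p = 0.00791 by edgeR's quasi-likelihood test). The GABA-making enzymes Gad1 and Gad2 differed by -0.09 and -0.06 and their pairs overlapped. Of 19 GABA genes 5 were higher and 3 lower (median -0.01), and of 19 interneuron and neuropeptide genes 6 were higher and 5 lower (-0.03), with Calb2, a calcium buffer, at 750 and 776 reads against 641 and 566. Of 26 monoamine and acetylcholine genes 7 were lower and 4 higher, and the gap exceeded the spread within pairs for 5 that were lower, beside 3.19% of all genes. Drd2, the dopamine D2 receptor gene, was 1 of these, with 90 and 88 against 63 and 54 (-0.44). Chrna4, a nicotinic receptor subunit, had 429 and 512 against 707 and 575 (0.39).

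Against the same shares of all genes, glutamate receptors had 5 higher and 4 lower of 22 (median -0.00), with Grik3, a kainate receptor subunit, at -0.19 and Gria4, an AMPA receptor subunit, at 0.14. Synaptic vesicle and scaffold genes had 6 higher and 3 lower of 28 (median -0.01), and potassium channels 2 higher and 1 lower of 27 (0.01).

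Markers of hippocampal neurons showed small differences, again beside 13.3% of all genes higher and 14.4% lower without overlap. Dentate granule cell genes had 3 lower and none higher of 16 (median -0.05). C1ql2, a mossy fibre synapse protein, had 1849 and 1938 reads against 1333 and 1632 (-0.35). Plk5, a kinase homologue expressed in brain, had 473 and 457 against 385 and 376, and Pdzd2, a PDZ-domain protein, 1590 and 1602 against 1310 and 1414. Pyramidal cell genes had 3 higher and 3 lower of 19 (median 0.00), with Cacng5, an AMPA receptor partner, at 405 and 381 reads against 290 and 354 (-0.25). Clock genes had 2 higher and 4 lower of 17, among them Per2 with 1112 and 1011 reads against 882 and 965 (-0.18).

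Glial and hormone response lists are read against the same 13.3% higher and 14.4% lower. Astrocyte genes had 4 lower and none higher of 16 (median -0.02), with Glul, which makes glutamine, at -0.15, and oligodendrocyte genes had 6 lower and 2 higher of 20 (-0.02), with Sox10, a lineage factor, at -0.16. Neurogenesis genes had 2 higher and 3 lower of 11 (0.05). Glucocorticoid response genes had 4 lower and 2 higher of 18 (median -0.11). Tsc22d3, a glucocorticoid-induced leucine zipper gene, had 764 and 756 reads in WT and Mutyh KO against 547 and 691 (-0.29), and Plin4, a lipid droplet protein, had 191 and 200 against 96 and 147 (-0.42). Both were lowest in Ogg1 KO.

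Zic1, a transcription factor of the thalamus and septum among other regions, had 1004 reads in WT and 1195 in Mutyh KO against 710 and 723 (difference -0.57, unadjusted p = 0.000851 by edgeR's quasi-likelihood test). Of the 12 tested genes of the thalamus and habenula list, 4 were higher and 2 lower without overlap, beside 13.3% and 14.4% of all genes. The lower ones were Zic1 and Calb2 (-0.33), and among the higher was Tnnt1, a troponin gene of the thalamus, with 13 and 13 reads against 18 and 36. The list's summed level was 237.5 and 278.2 reads per M in the intact pair and 229.4 and 253.8 in the null pair. How far the extent of the dissection bears on Zic1 was not tested.

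Some genes were higher in the Ogg1-null pair with a gap above the spread within pairs. After the sparsely read Mir680-2, Pter and Acta2 had the largest differences among the named ones. Acta2, the actin of smooth muscle, had 518 and 581 reads in WT and Mutyh KO and 686 and 858 in Ogg1 KO and DKO (0.46, unadjusted p = 0.00469 by edgeR's quasi-likelihood test). Tagln and Myh11, contractile genes of the same cells, had 177 and 175 against 218 and 293, and 547 and 550 against 594 and 935. The list of endothelium, pericytes and smooth muscle had 4 higher and 3 lower of 18 without overlap, beside 13.3% and 14.4% of all genes. Its median was 0.04, and it summed to 535.9 and 610.7 reads per M against 594.7 and 625.5. The part of vessel content in the values of Acta2 was not tested.

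Pter, a phosphotriesterase-related hydrolase, had 74 and 81 reads against 137 and 125 (0.46), with only 22.4% to 31.1% of its length covered. Tfb1m, the methylase of mitochondrial ribosomal RNA, had 50 and 51 against 84 and 71 (0.45). Sirt5, a mitochondrial deacylase, had 108 and 108 against 129 and 160 (0.35), and Uxt, a prefoldin-like protein, 52 and 53 against 79 and 72 (0.43). Pisd-ps3, a pseudogene copy, had 2720 and 2333 against 3651 and 3289, and reads may be split between it and its near copies. In each of these genes both null libraries lay above both intact ones, and none passed the test. Without overlap, respiratory chain genes had 2 higher and 2 lower of 28 (median 0.02), and ribosomal protein genes 4 higher and 3 lower of 26 (0.01). Over all genes 13.3% were higher and 14.4% lower.

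Only 11 genes differed at least 2-fold without overlap, and in 8 of them the spread within a pair was as large as the gap or larger. The exceptions were Camk1 and the small RNA genes Snord32a and Mir680-2. Snord32a had 4 and 4 reads in WT and Mutyh KO and 1 and 0 in Ogg1 KO and DKO. Mir680-2, a microRNA gene with near-identical copies, had 2 and 2 against 9 and 10. At such counts the separation rests on a handful of reads.

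Mid1, a ubiquitin ligase gene that spans the boundary of the pseudoautosomal region in laboratory mice, had the largest difference of that group after Gh and Hcrt. It had 465 and 348 reads in WT and Mutyh KO and 2120 and 978 in Ogg1 KO and DKO, or 6.46 and 5.11 RPKM against 31.3 and 13.5. The difference was 1.68 with a gap of 0.96, less than the 1.16 between the null libraries (edgeR's quasi-likelihood test, unadjusted p = 0.000472). Mid1 and Wdfy1 are both on the list of genes that vary between mouse strains. Of its 13 tested genes 1 was higher and 2 lower without overlap, beside 13.3% and 14.4% of all genes. Those at least 1.5-fold apart without overlap were Mid1 and Wdfy1, 15.4% of the list beside 0.32% of all genes. How far strain bears on these values was not tested. G530011O06Rik, a noncoding RNA gene within the span of Mid1 in the GRCm38.p6 table, was chosen after its values were seen. It had 511 and 499 reads against 655 and 709. Its covered share was 66.2% and 53.5% in the intact pair and 99.2% and 97.6% in the null pair, the highest pair difference of the 13670 genes at 38.6 points.

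**Figure D4:**
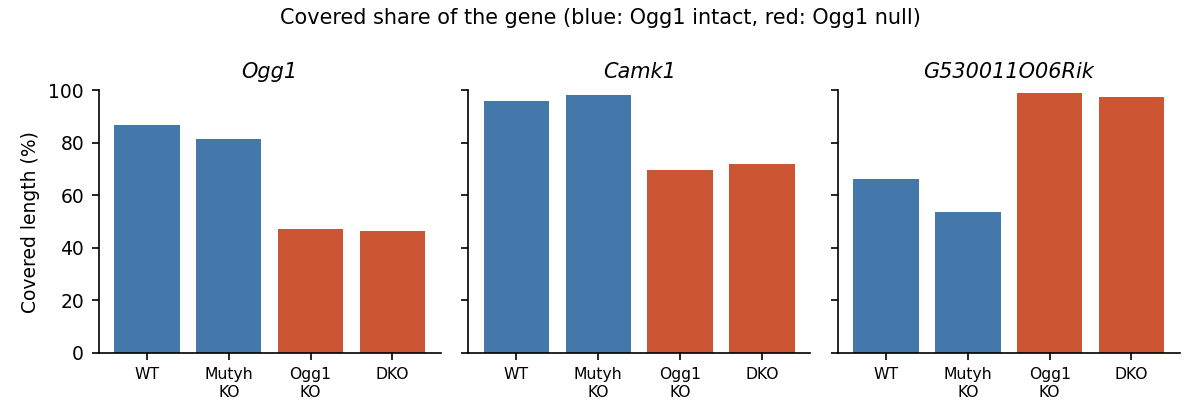
Percent of the length of Ogg1, Camk1 and G530011O06Rik that was covered by reads in each library, with the Ogg1-intact pair in blue and the Ogg1-null pair in red. Ogg1 and Camk1 are less covered in both null libraries and G530011O06Rik is nearly fully covered in them, with no overlap between pairs in any of the 3 panels.

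The summed level of the MHC genes was lowest in WT, at 188.2 reads per M against 261.5 in Mutyh KO, 246.4 in Ogg1 KO and 249.9 in DKO, though not every member followed (Psmb8, an immunoproteasome subunit, had 54, 39, 35 and 58 reads in that order). Cd74, the invariant chain of MHC class II, had 72 reads in WT, 176 in Mutyh KO, 246 in Ogg1 KO and 274 in DKO, a pair difference of 1.02 with 1.11 within the intact pair. H2-Aa had 18, 73, 84 and 114, and H2-Ab1 had 35, 59, 70 and 89. Mutyh KO lay nearer to the null libraries than to WT in Cd74 and H2-Aa. In all, 7 of 13 MHC genes were higher and 1 lower without overlap, beside 13.3% and 14.4% of all genes (median 0.16, and 0.084 without the WT library). Of 14 interferon response genes 4 were higher and none lower (median 0.11, and 0.023 without the WT library). Microglia genes, 3 of 15 higher and none lower, had a median of 0.01 and summed to 518.8 and 517.2 reads per M against 514.5 and 538.1.

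Genes of tissues bordering the hippocampus differed widely within the pairs. Choroid plexus genes had a list median of 0.68, which became -0.55 without the WT library. All 19 were higher in the null mean, yet Tmem72 was the only 1 whose pairs did not overlap, beside 13.3% of all genes higher and 14.4% lower. Tmem72 had 14 reads in WT, 235 in Mutyh KO, 522 in Ogg1 KO and 258 in DKO. Meninges genes summed to 291 and 788.3 reads per M against 586.7 and 584.1, and 3 of 15 were higher without overlap (13.3% of all genes were), among them Foxc1 and Col3a1. Their median of 0.28 became -0.015 without the WT library. Blood cell genes had none of 5 without overlap, beside the same shares of all genes. They summed to 37.1 and 128.1 reads per M against 73.7 and 57.6. Their median of -0.10 became -0.84 without the WT library and 0.72 without the Mutyh KO library. In each of these lists the intact libraries WT and Mutyh KO were the lowest and the highest.

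Some differences in hypothalamic and pituitary genes and in those of peripheral organs likewise rested on 1 library. Hcrt, the orexin precursor, was low in both null libraries, with 16 and 62 reads in WT and Mutyh KO against 2 and 3 (edgeR's quasi-likelihood test, unadjusted p = 0.00194). Pmch, the precursor of melanin-concentrating hormone, had 2 and 67 against 1 and 1. Gh, growth hormone, had 4 and 1 against 7 in Ogg1 KO and 256 in DKO. Lcn2, an acute phase protein, was also low in both null libraries, at 57 and 21 against 3 and 7 (edgeR's quasi-likelihood test, unadjusted p = 0.0016). Neither Hcrt nor Lcn2 passed the test after adjustment. Myl2, a heart myosin light chain, had 47 and 41 against 2 and 35, and the liver list's median of -0.66 became -0.00092 without the Ogg1 KO library.

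**Figure D5:**
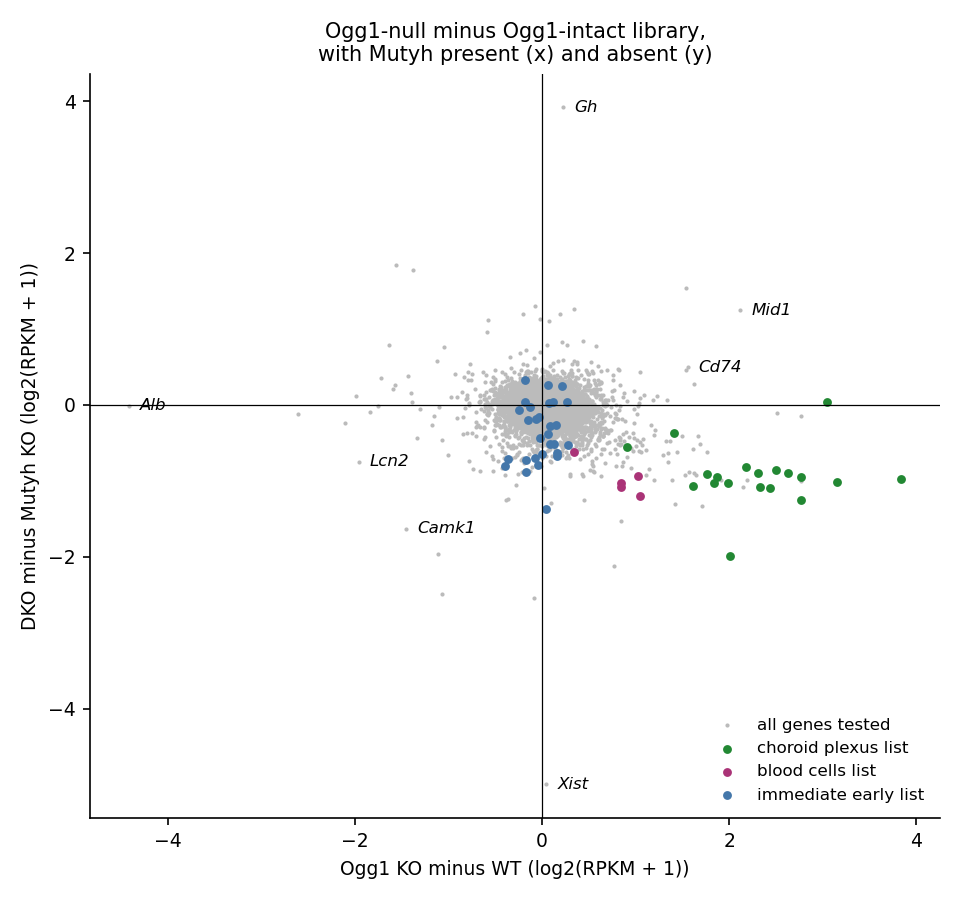
Each point is 1 tested gene, placed by Ogg1 KO minus WT (x axis) and by DKO minus Mutyh KO (y axis), both in log2(RPKM + 1), with genes of 3 lists in colour. Camk1 lies low on both axes at -1.45 and -1.63, while choroid plexus genes lie to the right on the x axis and almost all below 0 on the y axis.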

How the data were processed

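Total RNA from mouse hippocampus was sequenced as 1 library per genotype. Each table gives, per the file headers, a count of unique reads per gene made by the authors. The authors' RPKM values, per the file headers, equalled those reads divided by gene length and by the library total. Coverage was deposited by the authors as a percent, read here from its column name as the share of a gene covered by reads. The build was mm9, per the submitters' processing notes; aligner, annotation and strand were not stated. Genes not listed in a library were taken as 0, and 0.0179% to 0.0195% of reads had no gene symbol and were kept under gene IDs. Totals were 18.12 M and 17.15 M reads in WT and Mutyh KO and 17.02 M and 18.20 M in Ogg1 KO and DKO.

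Of 18492 genes listed in any library, 13186 had a mean of at least 1 RPKM and were compared. Sizes are differences of mean log2(RPKM + 1), which understate those of weakly expressed genes. A gene was without overlap when both libraries of one pair lay above both of the other. Counts were tested with edgeR 4.0.16 (quasi-likelihood, TMM, Ogg1 status alone, common biological coefficient of variation 10.74%, Benjamini-Hochberg over all tested genes). Alternatives were DESeq2 1.42.0, an additive Mutyh term, other scalings, filters and pseudocount, and leaving out each library. The fit was also run on simulated counts with the same biological coefficient of variation for every gene and none of the library differences described above. There it found 33.8% of genes changed 1.5-fold, 95.8% of those changed 2-fold and 100% of those changed 3-fold. It called 6 of 12986 unchanged genes. Such counts vary less than these libraries, so the shares do not measure how the fit performs on them. Gene order and promoters came from RefSeq tables of GRCm38.p6, matching 13147 genes by ID, so no gene coordinates of the mm9 files are given.

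The comparison, the 38 gene lists and their members were chosen with earlier results of these data known. Named genes were Ogg1, Mutyh, genes passing the test, the 15 highest and 15 lowest with a gap above the spread within pairs, the 10 nearest neighbours of Ogg1 on each side, up to 4 members per list without overlap, and further list members where a list is described. Genes with clone or predicted names were counted but not named, apart from 2 singled out in the text.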

Additional observations from a re-analysis of the deposited data

Results flagged for a closer look

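The difference between an Ogg1-null and an Ogg1-intact library was taken with Mutyh present (Ogg1 KO minus WT) and absent (DKO minus Mutyh KO), 1 library each. The list medians had opposite signs for 16 of 38 gene lists, and for 2 lists both were at least 0.2 in size on the log2(RPKM + 1) scale; the difference between the directions was not tested. The median log2(RPKM + 1) difference of blood cell genes was 0.841 for Ogg1 KO minus WT and -1.03 for DKO minus Mutyh KO. For choroid plexus genes it was 2.31 for Ogg1 KO minus WT and -0.941 for DKO minus Mutyh KO. Beta-s, a beta-globin gene, had 408 and 1348 reads in the intact pair (WT, Mutyh KO) and 803 and 616 in the null pair (Ogg1 KO, DKO). Kcnj13, a choroid plexus potassium channel, had 45 and 688 against 557 and 350. Among lists with a median below that size, ependyma and motile cilia genes stood at 0.0958 and -0.659, oligodendrocyte and myelin genes at 0.0865 and -0.117, and liver genes at -1.39 and 0.0328.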

How the results depend on the processing

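The count of 1 gene by edgeR was 1 as well with an additive Mutyh term, DESeq2 size factors, library totals, no filter or a 5 RPKM filter, and 4 with DESeq2. Leaving out a library gave 0 (without Ogg1 KO) to 146 genes (without Mutyh KO), with 25 without WT and 4 without DKO. The log2 change of Camk1 lay between -1.745 and -1.615 over these omissions, at an adjusted p of 0.0425 with the additive term. Genes at least 2-fold apart without overlap numbered 9 higher and 15 lower at a pseudocount of 0.1, 2 and 1 at 5 RPKM, 8 higher without a filter, and 16 and 26 at a 1.5-fold limit; over omissions they ranged from 8 to 61 higher and 6 to 32 lower. At 5 RPKM, 520 of 9367 genes had a gap above the larger difference within a pair. Over omissions that count ranged from 3432 to 4521, and genes without overlap from 3592 to 4742 higher and 4054 to 4460 lower, since 3 libraries separate more readily than 4. Of the list medians, that for p53 moved past the spread within pairs without DKO, that for GABA genes without WT or DKO, and that for astrocytes without WT. This rule uses each list's own spread, so it does not rank lists by size of shift. The GABA median moved only from -0.007 to 0.014 without WT and 0.020 without DKO. The choroid plexus median went from 0.68 to -0.55 without WT and the blood cell median from -0.10 to 0.72 without Mutyh KO, both inside their wide spreads. No paired analysis was possible because the labels give no replicate numbers that pair libraries; the additive term matches libraries by Mutyh genotype instead. Depth limits genes with few reads, such as Snord32a and Mutyh.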
